A study of Mus musculus with 6 samples.

Results

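The factors that cut a pre-mRNA at its 3′ end, add the poly(A) tail and release RNA polymerase II were followed in mouse 3T3-L1 cells with and without Ube3d. They were chosen by name, as 41 gene symbols of the cleavage and polyadenylation complexes and of transcription termination, and 40 of them have a row among the 24421 genes of the deposited table. The remaining symbol, Ars2, is a RefSeq synonym of Srrt, which is among the 40. All 40 had enough counts to be tested. 3T3-L1 is an established mouse embryonic fibroblast line used as a preadipocyte model. Total RNA of 3 wild-type (WT) and 3 Ube3d knockout (Ube3d-KO) samples was depleted of ribosomal RNA and sequenced as stranded libraries. Both genotypes were undifferentiated, in log-phase growth in high-glucose DMEM with FBS and antibiotics, and kept below full confluence, and no other allele or agent is named for either. The titles call the samples biological replicates; the labels do not say how the knockout was made, whether it is 1 clone or how separate the cultures were. The tests therefore weigh a difference only against the variation among these 6 samples, which may be technical.

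Cleavage and polyadenylation follow a fixed order of parts. The cleavage and polyadenylation specificity factor, CPSF, reads the AAUAAA signal through CPSF30 (Cpsf4) and WDR33 and cuts the RNA with CPSF73 (Cpsf3), while the cleavage stimulation factor, CstF, binds the U- or GU-rich stretch beyond the cut and the cleavage factors CFIm and CFIIm join on either side. Poly(A) polymerase then extends the new end, the exonuclease XRN2 degrades the RNA still attached to the polymerase, and phosphatases and readers of the polymerase's C-terminal domain (CTD) take part in its release. UBE3D, a ubiquitin ligase, is known as a partner of CPSF73.

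The signal that CPSF reads is given here at the 3′ ends of the transcripts of 5 of these factors themselves, chosen because they include the exonuclease, a phosphatase of the complex and the most abundant member, and because both spellings of the signal occur. Each line gives 30 bases of the GENCODE M21 transcript on GRCm38, 5′ to 3′ in the DNA alphabet, with the signal nearest the end in capitals. In Xrn2 a second AATAAA, in lower case, stands directly before the marked one. The stretches lie at chr2:147077971-147078000, plus strand for Xrn2, chr4:155733836-155733865, plus strand for Ssu72, chr15:36595661-36595690, minus strand for Pabpc1, chr5:122175244-122175273, plus strand for Ppp1cc and chr7:16437664-16437693, plus strand for Zc3h4.
Xrn2: aaaaataaaAATAAAgctaaactttaaaaa
Ssu72: aacctaAATAAAgcaacaggctgtcttatt
Pabpc1: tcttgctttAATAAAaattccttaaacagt
Ppp1cc: agacttATTAAAtgcaagcttgttaacttg
Zc3h4: actgccATTAAAggatgcagttattttaaa
A search of the transcript strand for AATAAA, and where it was missing for ATTAAA, in the last 40 bases of the transcript that ends farthest downstream found one or the other in 28 of the 40 factors (70%), 24 with AATAAA and 4 with ATTAAA. Among 11699 tested genes with such a transcript the share was 77.5%. In the other 12 factors, Cpsf3 and Cdk12 among them, these letters are not in this window of the annotated end.

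The factors differed widely in level. Per length, in TPM (read counts divided by exon length and scaled to the library's total), the cytoplasmic poly(A)-binding protein gene Pabpc1 was at 2000.0 ± 7.55 (SD, n = 3) in wild type, followed by the protein phosphatase 1 gene Ppp1ca at 774 ± 15.1, Pabpc4 at 299 ± 4.46, Xrn2 at 210.4 ± 11.4 and the CFIm gene Nudt21 at 176 ± 4.29 TPM. The lowest were Rprd1a at 13.6 ± 1.01, the poly(A) polymerase gene Papolg at 16.2 ± 0.931 and the CstF gene Cstf3 at 23.0 ± 0.793 TPM, and the median of the 40 was 50.1 TPM. Among the CPSF genes the order was Fip1l1 (86.5 ± 0.639), Sympk (55.7 ± 2.05), Cpsf2 (55.0 ± 1.31), Cpsf3 (51.1 ± 1.69), Cpsf4 (32.9 ± 2.32), Cpsf1 (32.8 ± 2.01) and Wdr33 (24.6 ± 0.546 TPM). The middle pairs of that order, Sympk and Cpsf2, and Cpsf4 and Cpsf1, differed by less than their SD.

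**Figure D1:**
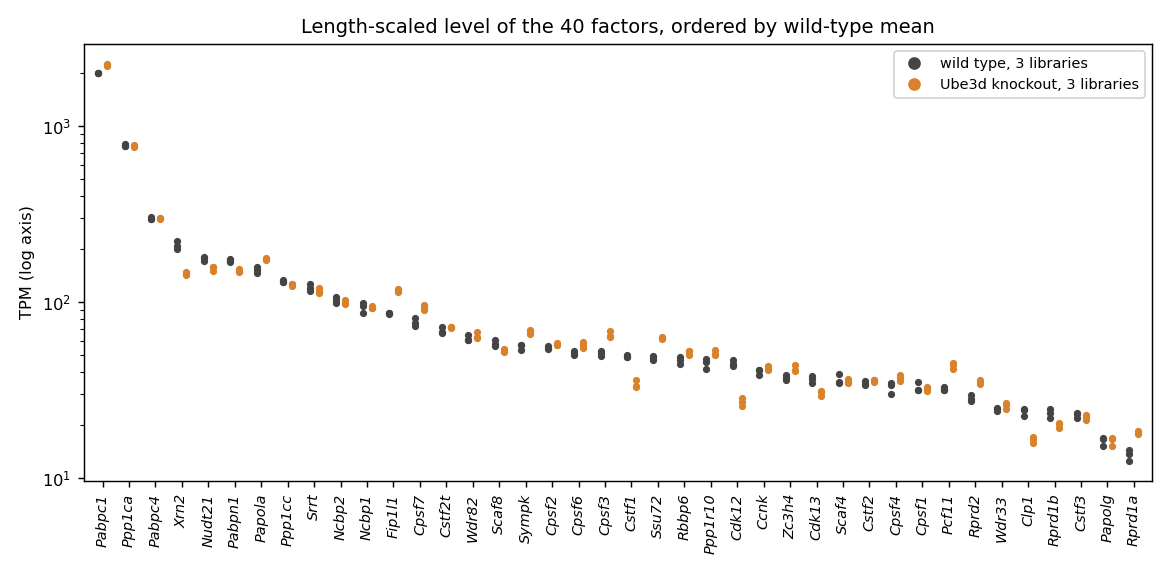
Level of the 40 factors in each library, in TPM on a log axis, ordered by the wild-type mean, with 3 points per genotype. Pabpc1 stands at the top, and Cstf1, Cdk12 and Clp1 are lower in each knockout library than in each wild-type library, Pcf11 and Rprd1a higher.

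The libraries held 23767181 to 29389480 gene counts, and the knocked-out gene was low in each knockout library. It is listed as Ube2cbp, with 145, 229 and 173 counts in the wild-type libraries and 56, 43 and 53 counts in those of the knockout (6.80 ± 0.80 against 1.89 ± 0.31 CPM, counts scaled to library size by TMM, 3.62-fold lower, log2 −1.86, SE 0.15, edgeR adjusted p = 7.2e-18). Of 10 fibroblast and preadipocyte markers all were tested, 8 were lower and 1 was higher in the knockout, and their summed level was 14158 to 14625 CPM in wild type and 11711 to 12086 CPM in the knockout. Epithelial markers summed to at most 0.624 CPM, with Epcam and Krt18 at 0 counts. Endothelial markers summed to 0.60 to 1.08 CPM in wild type and 1.45 to 2.42 CPM in the knockout. Of these only Vwf had enough counts to be tested, and its mean went from 0.285 to 1.27 CPM. In the same order of genotypes, adipocyte markers summed to 3.44 to 3.92 and 0.865 to 1.17 CPM, with Lep at 0. Macrophage markers summed to 15.2 to 16.4 and 15.59 to 16.04 CPM, with Adgre1 at 0. The ribosomal RNA precursor Rn45s took 7.28% to 8.91% of the gene counts in wild type and 9.68% to 10.2% in the knockout, and without it 15 factors were again higher and 12 lower. The part of the markers in the factors' changes was not tested. In these bulk samples, fewer cells of a kind and less RNA per cell cannot be told apart. Reads in regions downstream of genes (DoG), the deposited readout of transcription past gene ends, divided by the library's gene counts on the CPM scale, came to 24326, 25882 and 25062 CPM in the wild-type libraries and 31451, 30134 and 29599.9 CPM in those of the knockout, a ratio of 1.21 (two-sided exact permutation p = 0.1, the smallest that 3 against 3 allows). The DoG table names no genes, so the regions behind the factors' own genes were not analysed here.

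Of the 40 factors, 15 were higher in the knockout and 12 were lower, called at an edgeR adjusted p under 0.05 among 12947 tested genes. Among all tested genes 30.3% were higher and 31.2% lower, and among the 8854 with a mean of at least 10 CPM 29.2% and 37.2%. The members' 27 calls of 40 (67.5%) were therefore close to the 61.4% of all tested genes and the 66.4% of those at 10 CPM or more. In 14 factors each knockout library lay above each wild-type library and in 13 below, where 31.8% and 32.5% of all tested genes did so, and 30.5% and 38.5% of those at 10 CPM or more. The changes were small. No factor doubled or halved, as did 998 of all tested genes (7.71%) and 167 of those at 10 CPM or more (1.89%), the level that each of the 40 reached. A log2 change of at least 0.25 in either direction was called in 12 of the 40 (30%), a share that was 39.2% among all tested genes and 34.3% among those at 10 CPM or more. The median log2 change was 0.014 for the factors, 0.0041 for all tested genes and −0.029 for those at 10 CPM or more. CPM values per library follow in the order of the replicate numbers, a fold or log2 change compares the knockout with wild type, and the SE is that of the log2 change.

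**Figure D2:**
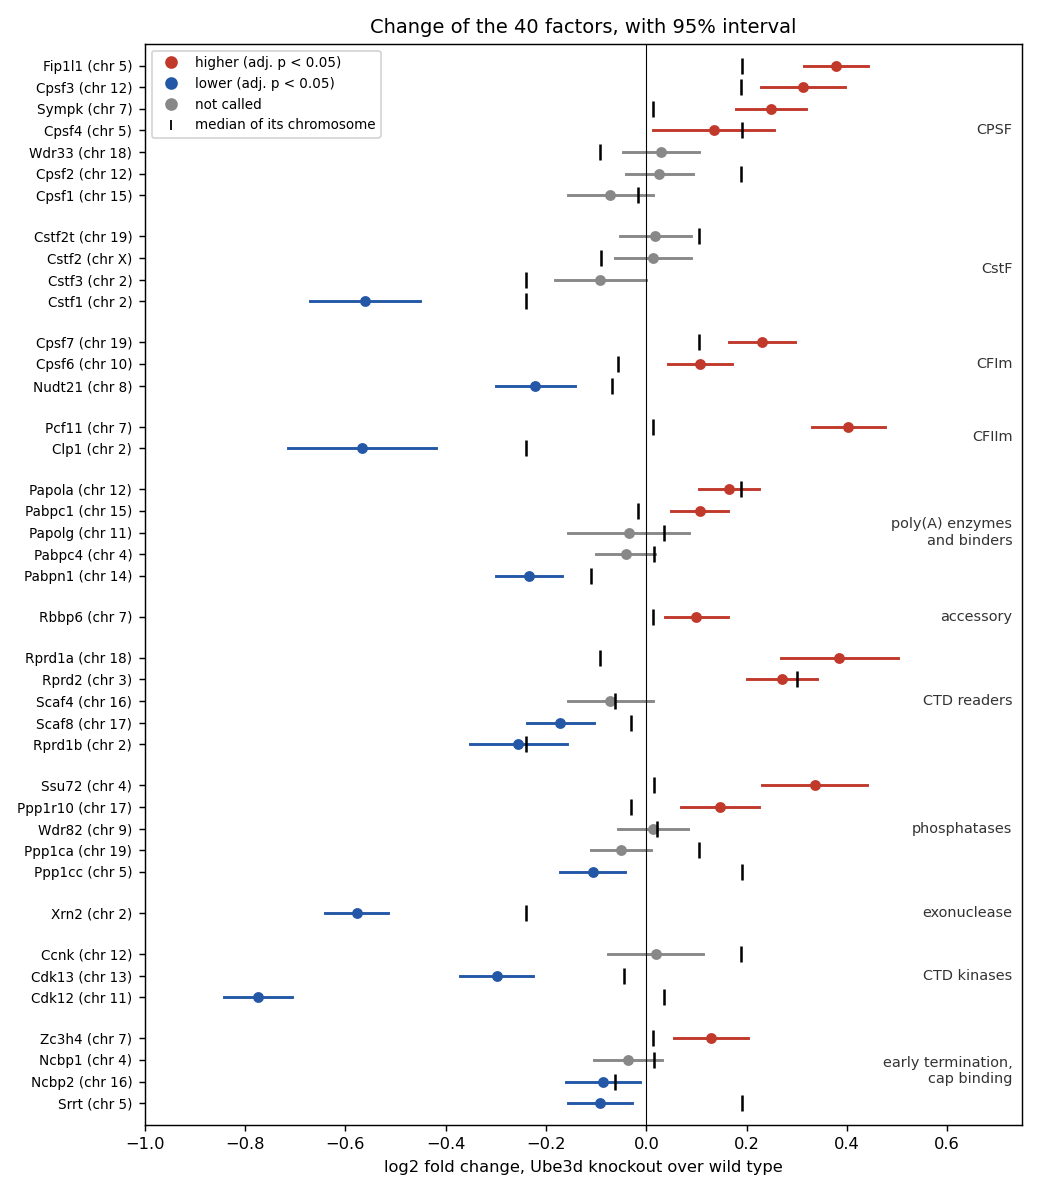
Log2 fold change of each factor in the knockout over wild type (points) with its 95% interval (lines), grouped by complex and coloured by call, with the chromosome of each gene and the median change of that chromosome (black ticks). Cdk12 has the lowest value at −0.77 and Pcf11 the highest at 0.40.

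Of the 7 CPSF genes, 4 were higher in the knockout and none was lower. Cpsf3, whose product is the cutting subunit CPSF73, had 56.0, 55.9 and 58.8 CPM in the wild-type libraries and 73.4, 69.9 and 68.8 CPM in the knockout libraries. Its groups did not overlap, and it rose 1.24-fold (log2 0.31, SE 0.042, edgeR adjusted p = 1.4e-09). Fip1l1, which tethers the poly(A) polymerase, had 117, 114 and 117 CPM in the wild-type libraries and 153, 148 and 151 CPM in the knockout libraries. It rose 1.30-fold (log2 0.38, SE 0.032, edgeR adjusted p = 9.4e-17), again with no overlap between genotypes. The scaffold gene Sympk went from 99.7 ± 2.33 to 118 ± 3.41 CPM (log2 0.25), and the signal-reading subunit gene Cpsf4 from 24.5 ± 1.30 to 27.0 ± 0.966 CPM (log2 0.13, edgeR adjusted p = 0.048). Not called were Cpsf1 (95% interval of the log2 change −0.16 to 0.012), Cpsf2 (−0.04 to 0.092), which encodes the inactive partner of CPSF73, and Wdr33 (−0.046 to 0.10). The log2 changes of Cpsf3 (0.31) and Cpsf2 (0.026), both on chromosome 12, were not tested against each other.

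Chromosomes 5 and 12, which hold 4 of these 7 genes, were higher in the knockout as a whole, with a median log2 change of 0.19 over 804 tested genes and 0.19 over 447. Tested against that median in place of no change, Fip1l1 stayed higher at 0.19 (edgeR adjusted p = 1.0e-06) and Cpsf3 at 0.12 (adjusted p = 0.0092), each less than its change against zero by over 1.5 times. Such a test takes the chromosome median as a fixed value. Its p weighs the variation among the libraries and not the spread among the chromosome's genes, and 57.5% of all tested genes were called by it. Cpsf4 was no longer called (−0.058, edgeR adjusted p = 0.42), and Cpsf2 was called lower than its chromosome's median (−0.16, adjusted p = 2.4e-05). Sympk on chromosome 7, whose median was 0.014, kept its value (0.23, adjusted p = 3.0e-08). The 10 tested genes on each side of Cpsf3 had a median of 0.16, with 8 higher and 3 lower, and those around Fip1l1 0.15, with 10 higher and 4 lower.

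In CstF, the complex that binds downstream of the cut, 1 of the 4 genes was called. Cstf1, which encodes the WD-repeat subunit CstF50, had 39.1, 38.7 and 38.6 CPM in the wild-type libraries and 25.2, 27.9 and 25.7 CPM in the knockout libraries. The genotypes did not overlap, and Cstf1 fell 1.48-fold (log2 −0.56, SE 0.055, edgeR adjusted p = 2.6e-14). The RNA-binding subunit genes Cstf2 (95% interval of the log2 change −0.062 to 0.089) and Cstf2t (−0.052 to 0.088) and the scaffold gene Cstf3 (−0.092, edgeR adjusted p = 0.073) were not called. For Cstf3 the interval was −0.18 to −0.0013, and each knockout library was below each wild-type library. Cstf1 and Cstf3 both lie on chromosome 2, where 598 of 1024 tested genes were lower and 160 higher, with a median of −0.24. Against that median, Cstf1 remained lower (−0.32, edgeR adjusted p = 8.1e-07) and Cstf3 was higher (0.15, adjusted p = 0.004). Of the 20 neighbours of Cstf1, 15 were lower (median −0.36), and of those of Cstf3 likewise 15 (median −0.33). Cstf2 shares 402 exon bases (7.20% of its exon length) with Nox1 on the other strand, and Cstf2t is an intronless copy of Cstf2; since the strand setting and the treatment of reads with several alignments are not given, the split of their reads is uncertain.

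The 3 genes of CFIm, which binds UGUA upstream of the cut and takes part in the choice between poly(A) sites, moved in both directions. Cpsf7, 1 of the 2 genes for its large subunit, had 116, 124 and 120.1 CPM in the wild-type libraries and 145, 141 and 138 CPM in the knockout libraries. It rose 1.17-fold (log2 0.23, SE 0.033, edgeR adjusted p = 9.0e-09), and the genotypes did not overlap; against its chromosome the rise was smaller by over 1.5 times. Cpsf6, the other large-subunit gene, rose from 146 ± 1.28 to 157 ± 6.38 CPM (log2 0.11, edgeR adjusted p = 0.0028). Nudt21, which encodes the UGUA-reading CFIm25, fell from 85.2 ± 3.55 to 73.0 ± 1.91 CPM (log2 −0.22, adjusted p = 1.5e-06). All 3 were called in the same direction against the medians of their chromosomes 19, 10 and 8, where Cpsf7 was at 0.13, Cpsf6 at 0.16 and Nudt21 at −0.15.

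The 2 genes of CFIIm went opposite ways. Pcf11, whose product binds the CTD and couples cleavage to termination, had 81.3, 81.0 and 80.2 CPM in the wild-type libraries and 109.5, 108 and 103 CPM in the knockout libraries. This was the largest rise of the 40, at 1.32-fold (log2 0.40, SE 0.036, edgeR adjusted p = 1.2e-15), and the genotypes did not overlap. Clp1, an RNA kinase that joins PCF11 in the complex, had 18.3, 19.2 and 19.4 CPM in the wild-type libraries and 13.2, 12.3 and 12.9 CPM in the knockout libraries. It fell 1.48-fold (log2 −0.57, SE 0.074, edgeR adjusted p = 5.1e-10), so that each knockout library was below each wild-type library. Pcf11 lies on chromosome 7 (92643712 to 92669912, minus strand of GRCm38), whose median change was 0.014, and it kept its value against it (0.39, edgeR adjusted p = 6.4e-15). Its 20 neighbours had a median of 0.24, with 10 higher and 3 lower. Clp1 lies on chromosome 2 and was at −0.33 against the median there (adjusted p = 1.2e-04), with 13 of its 20 neighbours lower.

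Among the genes of poly(A) polymerases and poly(A)-binding proteins, 2 were higher and 1 was lower of 5. Pabpn1, the nuclear protein that coats the growing tail, had 134, 133 and 136 CPM in the wild-type libraries and 113, 117 and 113 CPM in the knockout libraries. It fell 1.18-fold (log2 −0.23, SE 0.033, edgeR adjusted p = 5.7e-09), with no overlap, and was at −0.12 against the median of chromosome 14. Its neighbours had a median of −0.23, close to its own change. Papola, the main nuclear poly(A) polymerase gene, rose from 298 ± 8.85 to 334 ± 6.03 CPM (log2 0.16, edgeR adjusted p = 2.4e-06), and this call was lost against the median of chromosome 12 (−0.024, adjusted p = 0.51). The cytoplasmic Pabpc1 rose from 2453 ± 39.2 to 2639.6 ± 54.6 CPM (log2 0.11, adjusted p = 0.001). Neither Papolg (95% interval of the log2 change −0.16 to 0.084) nor Pabpc4 (−0.10 to 0.018) was called. Rbbp6, which activates cleavage, had 154, 156 and 166 CPM in the wild-type libraries and 172, 164 and 175 CPM in the knockout libraries. These overlapped, and the rise of 1.07-fold (log2 0.10, SE 0.032, edgeR adjusted p = 0.0052) was not called without wild-type replicate 1 (log2 0.074, adjusted p = 0.062) or without knockout replicate 3 (log2 0.077, adjusted p = 0.065).

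**Figure D3:**
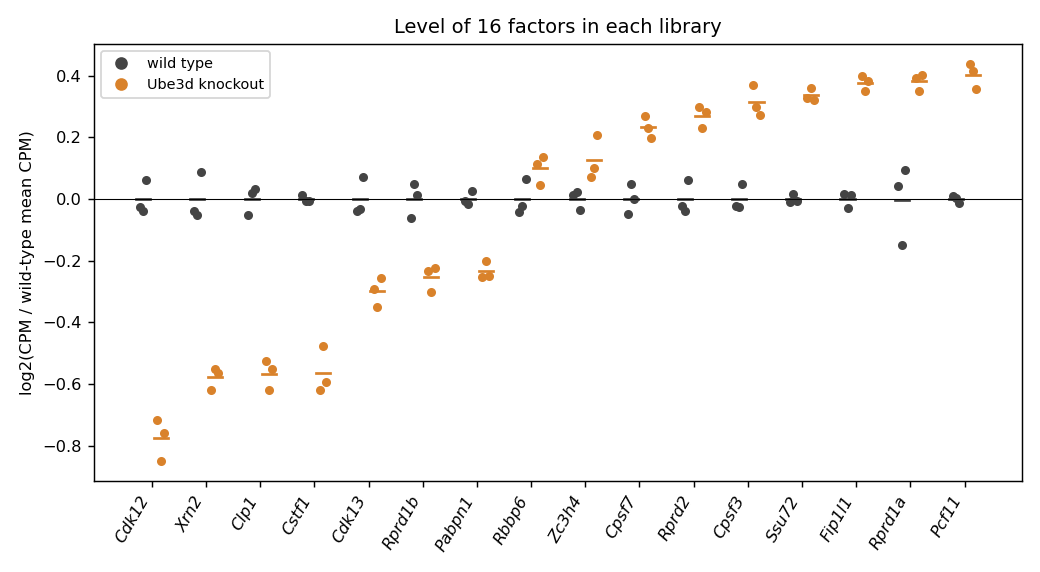
Level of the 16 factors that the naming rule chose for values per library, as log2 of the CPM over the wild-type mean, with 3 points and the mean (line) per genotype. The genotypes overlap only in Rbbp6 among these 16.

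Xrn2, the 5′ to 3′ exonuclease that pursues the polymerase after cleavage, had the lowest log2 change after Cdk12, close to those of Clp1 and Cstf1. It lies at chromosome 2, 147013060 to 147077997, plus strand of GRCm38, and had 299.9, 297 and 327 CPM in the wild-type libraries and 200.3, 210.2 and 208 CPM in the knockout libraries. Each knockout library was below each wild-type library, and the fall was 1.49-fold (log2 −0.58, SE 0.032, edgeR adjusted p = 5.0e-26). Against the median of chromosome 2 it was −0.34 (edgeR adjusted p = 7.5e-15), smaller by over 1.5 times, and 18 of its 20 neighbours had a higher log2 change than Xrn2 (neighbour median −0.30).

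The genes of the CTD kinases were lower while that of their cyclin was not called. CDK12 and CDK13 pair with cyclin K (Ccnk) and phosphorylate the polymerase's CTD during elongation, and CDK12 is known for keeping polyadenylation within long genes from being used. Cdk12 had 167, 166 and 178 CPM in the wild-type libraries and 104, 94.7 and 101 CPM in the knockout libraries. It fell 1.71-fold (log2 −0.77, SE 0.034, edgeR adjusted p = 2.8e-31), the largest change of the 40, with no overlap between genotypes. Cdk13 had 109, 109.9 and 118 CPM in the wild-type libraries and 91.8, 88.1 and 94.2 CPM in the knockout libraries. It fell 1.23-fold (log2 −0.30, SE 0.037, edgeR adjusted p = 8.7e-11), also without overlap. Ccnk had 48.2, 46.2 and 44.2 CPM in the wild-type libraries and 46.1, 45.8 and 48.3 CPM in the knockout libraries, and these overlapped (log2 0.018, 95% interval −0.076 to 0.11).

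Neither kinase gene lies on a chromosome with a strongly shifted median. Cdk12 is at chromosome 11, 98203305 to 98253540, plus strand, with 14 exons, and Cdk13 at chromosome 13, 17715962 to 17805097, minus strand of GRCm38, likewise with 14. Against their chromosome medians of 0.036 and −0.044 they were at −0.81 (edgeR adjusted p = 2.2e-32) and −0.25 (adjusted p = 1.1e-08). The 20 neighbours of Cdk12 had a median of 0.016, and 19 of them had a higher log2 change than Cdk12. For Cdk13 the neighbour median was 0.017 and all 20 were above it, a place shared among the 40 factors only by Ppp1cc. Cyclin K lies on chromosome 12 and was called lower than its chromosome's median (−0.17, edgeR adjusted p = 0.0016). Of its 20 neighbours 13 were called higher, and 14 had a higher and 6 a lower log2 change than Ccnk.

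The stretches before the start sites of these 3 genes are shown because 2 of the partners fell and the third was not called. Each line gives the 150 bases before the RefSeq start site (GRCm38.p6), 5′ to 3′ on the gene's strand: chr11:98203155-98203304, plus strand for Cdk12, chr13:17805098-17805247, minus strand for Cdk13 and chr12:108179588-108179737, plus strand for Ccnk. Capitals mark CCGGAA (the core of ETS sites), CCAAT (the NF-Y box) or GGGCGG (the GC box) on either strand.
Cdk12: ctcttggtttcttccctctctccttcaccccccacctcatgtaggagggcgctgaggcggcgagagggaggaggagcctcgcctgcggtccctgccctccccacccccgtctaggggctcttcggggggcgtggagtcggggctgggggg
Cdk13: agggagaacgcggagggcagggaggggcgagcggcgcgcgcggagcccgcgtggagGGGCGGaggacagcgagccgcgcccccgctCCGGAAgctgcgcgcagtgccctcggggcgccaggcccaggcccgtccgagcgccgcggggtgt
Ccnk: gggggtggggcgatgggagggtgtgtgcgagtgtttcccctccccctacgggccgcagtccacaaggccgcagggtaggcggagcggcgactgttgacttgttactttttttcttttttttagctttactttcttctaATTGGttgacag
The stretch of Cdk12 holds none of these letters, that of Cdk13 holds CCGGAA and GGGCGG once each, and that of Ccnk holds CCAAT once, on the opposite strand. In the full RefSeq window, 250 bases before to 50 after the start, the 3 genes have 27, 52 and 26 CpG dinucleotides, against a median of 28 over 37 windows of 34 of the 40 factors and 20 over the 12327 windows of tested genes. In that window GGGCGG occurs in each of the 3 genes, Cdk12 included, CCGGAA only in Cdk13 and CCAAT only in Ccnk. Searched on both strands, with motifs that may share end letters, CCGGAA was found in 35.1% of the factors' windows and 27.0% of those of tested genes, GGGCGG in 67.6% and 61.9%, CCAAT in 27.0% and 38.0%, and TATAAA in 8.11% and 7.16%. Over all 32851 windows of the table the shares were 14.9%, 35.7%, 37.4% and 13.6%.

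Genes for proteins that read the CTD divided evenly, with 2 higher and 2 lower of 5. Rprd1a, a CTD reader found with termination phosphatases, had 26.2, 22.9 and 27.1 CPM in the wild-type libraries and 33.3, 32.4 and 33.6 CPM in the knockout libraries. The genotypes did not overlap although wild-type replicate 2 was lower than the others of its group, and Rprd1a rose 1.31-fold (log2 0.39, SE 0.059, edgeR adjusted p = 4.7e-08). Its paralog Rprd1b had 44.6, 48.2 and 47.1 CPM in the wild-type libraries and 39.6, 37.8 and 39.9 CPM in the knockout libraries. It fell 1.19-fold (log2 −0.26, SE 0.049, edgeR adjusted p = 6.0e-06), with no overlap. The larger relative Rprd2 had 102, 101 and 108 CPM in the wild-type libraries and 128, 122 and 126 CPM in the knockout libraries, and rose 1.21-fold (log2 0.27, SE 0.035, edgeR adjusted p = 4.1e-10).

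Rprd1a, on chromosome 18 with a median of −0.092, was at 0.48 against it (edgeR adjusted p = 1.3e-10), and 18 of its 20 neighbours were below it. Rprd1b was at −0.015 against the median of chromosome 2 and was not called (adjusted p = 0.81). For Rprd2 the value against the median of chromosome 3 (0.30) turned to −0.031 (adjusted p = 0.45), and 14 of its 20 neighbours were higher. SCAF4 and SCAF8 are CTD binders that hold back early polyadenylation. Scaf8 fell from 124 ± 2.03 to 109.9 ± 1.72 CPM (log2 −0.17, edgeR adjusted p = 1.0e-05), and Scaf4 was not called (95% interval of the log2 change −0.16 to 0.013).

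Of the 5 phosphatase genes, 2 were higher and 1 was lower. Ssu72, a CTD phosphatase, had 30.2, 30.8 and 30.3 CPM in the wild-type libraries and 38.2, 39.1 and 38.0 CPM in the knockout libraries. It rose 1.26-fold (log2 0.34, SE 0.052, edgeR adjusted p = 8.1e-08), with no overlap, and was at 0.32 against the median of chromosome 4. The remaining 4 encode parts of the PNUTS phosphatase complex, which slows the polymerase past the poly(A) site. Its targeting subunit gene Ppp1r10 (PNUTS) rose from 82.7 ± 5.11 to 91.7 ± 2.90 CPM (log2 0.15, edgeR adjusted p = 9.2e-04), while the catalytic subunit gene Ppp1cc fell from 136 ± 2.90 to 126 ± 0.90 CPM (log2 −0.11, adjusted p = 0.0032). On chromosome 5, where the median was 0.19, all 20 neighbours of Ppp1cc had a higher log2 change, and its value against the chromosome was −0.30 (edgeR adjusted p = 1.5e-12). Wdr82 (95% interval of the log2 change −0.056 to 0.084) and the other catalytic gene, Ppp1ca (−0.11 to 0.0098), were not called, and 222 exon bases of Ppp1ca (16.3% of its exon length) overlap Rad9a on the other strand.

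Factors of early termination and cap binding changed little. Zc3h4, which with WDR82 restricts early and noncoding transcription, had 99.1, 99.7 and 95.8 CPM in the wild-type libraries and 103, 105 and 114 CPM in the knockout libraries. Its groups did not overlap and it rose 1.09-fold (log2 0.13, SE 0.037, edgeR adjusted p = 0.0017), a call lost without knockout replicate 3 (log2 0.084, adjusted p = 0.071). Srrt (ARS2), which links the cap-binding complex to termination, fell from 158 ± 3.59 to 149 ± 6.03 CPM (log2 −0.092, edgeR adjusted p = 0.01), and was at −0.28 against the median of chromosome 5. The cap-binding genes were at −0.087 for Ncbp2 (edgeR adjusted p = 0.036, called lower) and −0.036 for Ncbp1 (95% interval −0.10 to 0.032, not called).

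The factors were spread over 18 chromosomes. On chromosomes 2, 3, 5 and 12, whose medians were shifted most, lie 14 of the 40 factors, with 5 higher and 6 lower. Of all tested genes, 160 were higher and 598 lower of 1024 on chromosome 2, and 450 and 60 of 643 on chromosome 3. On chromosome 5 these were 467 and 86 of 804, and on chromosome 12 they were 244 and 52 of 447. The other chromosomes hold 26, with 10 higher and 6 lower. They include chromosomes 14 and 19, whose medians were also shifted (−0.11 and 0.10). The shares of all tested genes on the other chromosomes together were not computed. All 4 of the called factors of chromosome 2 were lower. On chromosome 5, 2 were higher and 2 lower, and on chromosome 12, 2 were higher and 2 not called. When each gene was tested against its chromosome's median, 15 factors were higher and 14 lower, where 57.5% of all tested genes were called. Of the 15 that had been higher, 12 were still called so, and of the 12 lower, 10. The calls of Cpsf4, Papola, Rprd2, Rprd1b and Ncbp2 were lost. Added were Wdr33, Cstf2 and Cstf3 as higher and Cpsf2, Cstf2t, Ppp1ca and Ccnk as lower. In 17 of the 27 called factors the median of the neighbours had the sign of the factor's own change, and in 20 the chromosome median did. The same shares over all tested genes were not computed. Scaf8 had only 11 neighbours in place of 20.

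**Figure D4:**
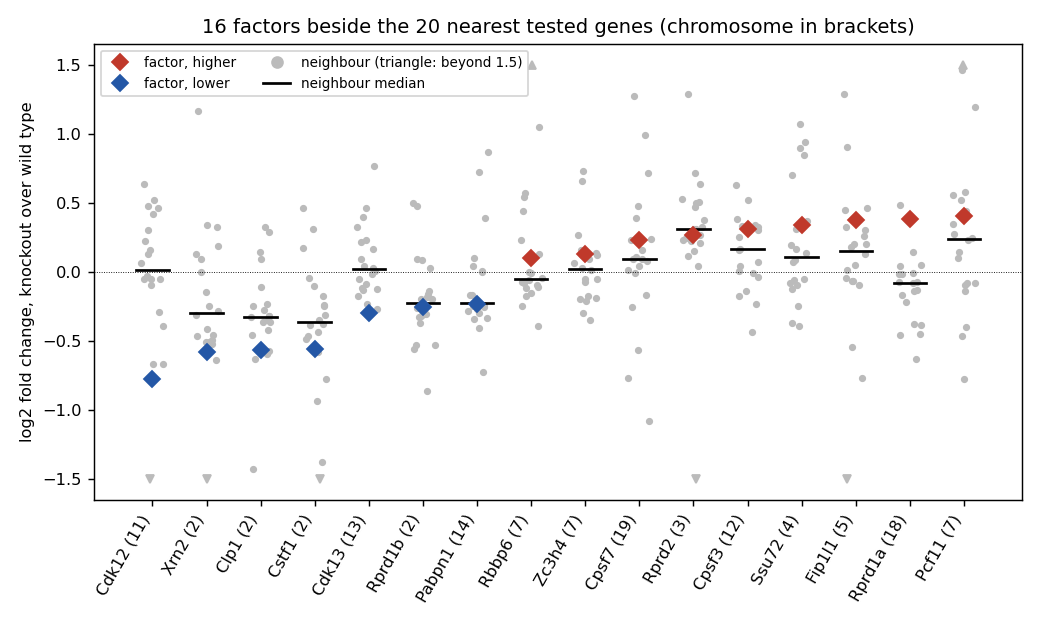
Log2 fold change of the same 16 factors, chosen by the naming rule (diamonds), beside the 10 nearest tested genes on each side (grey points, triangles beyond 1.5 on the log2 scale) and their median (black line). Cdk12, Cdk13 and Rprd1a lie apart from their neighbours' medians, while Rprd1b, Rprd2 and Pabpn1 lie close to them.

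Pairs of related factors were compared within each library, as the log2 ratio of counts per kb of exon, which does not depend on library scaling. In 6 of 8 pairs the ratios of the genotypes did not overlap, and for each of these the two-sided exact permutation p was 0.1, the smallest possible, and 0.133 after Benjamini-Hochberg adjustment over the 8 pairs, so that no pair could pass 0.05. Among single genes, 31.8% of all tested lay above wild type in each knockout library and a further 32.5% below. The 6 of 8 pairs count both directions, so the sum of these shares is the matching figure for single genes. The share among ratios of other gene pairs was not computed, so an excess among the 8 pairs was not tested. Unadjusted for chromosome medians, the ratio of Rprd1a to Rprd1b moved most. It was −0.67, −0.97 and −0.70 in wild-type and −0.15, −0.13 and −0.15 in knockout libraries. Per kb of the deposited exon length, the wild-type libraries thus had 1.72 times as many counts of Rprd1b as of Rprd1a and the knockout libraries 1.10 times. Which gene of a pair has more counts per kb depends on these lengths. The GENCODE end of Cdk13, for example, lies 5647 bases beyond the deposited one. The ratio of Cdk12 to Cdk13 was 0.32, 0.30 and 0.30 in wild-type and −0.12, −0.19 and −0.20 in knockout libraries, so that the kinase with more counts per kb was Cdk12 in wild type and Cdk13 in the knockout. For Papola to Papolg it was 3.27, 3.18 and 3.24 in wild-type and 3.36, 3.55 and 3.37 in knockout libraries, and for Pabpc1 to Pabpc4 2.74, 2.76 and 2.72 in wild-type and 2.88, 2.87 and 2.91 in knockout libraries. Smaller shifts without overlap were those of Cpsf6 to Cpsf7 (−0.13) and Scaf4 to Scaf8 (0.10). The ratios of Cstf2 to Cstf2t (−0.0052, exact permutation p = 0.9) and Ppp1ca to Ppp1cc (0.058, exact permutation p = 0.2) overlapped. The genes of each pair lie on different chromosomes, and the ratios were not set against the chromosome medians. Against these medians the log2 change of Rprd1b was −0.015 and that of Papola −0.024. Those of Rprd1a, Cdk12 and Cdk13 were 0.48, −0.81 and −0.25.

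**Figure D5:**
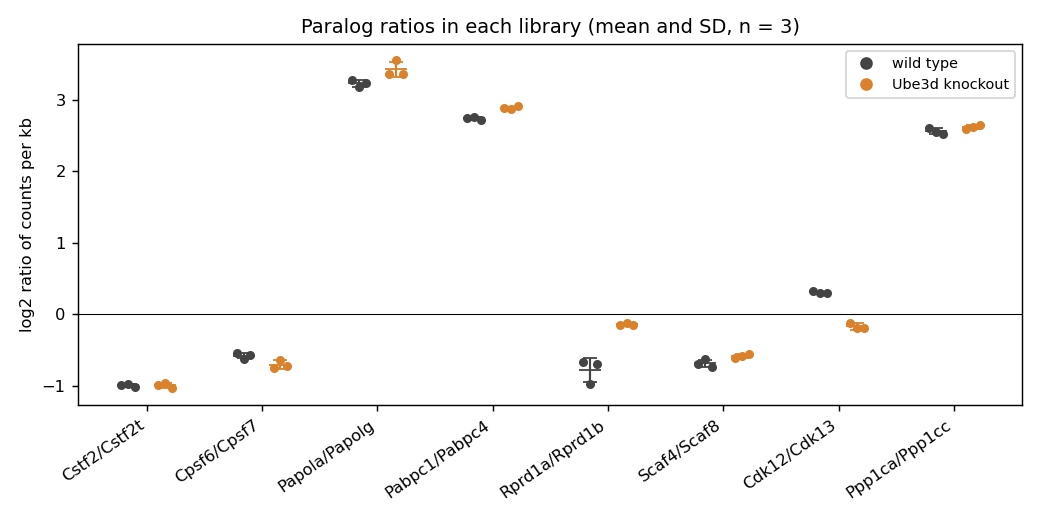
Log2 ratio of counts per kb of 8 pairs of related factors in each library, with the mean and SD of 3 libraries per genotype. The ratio of Cdk12 to Cdk13 is above 0 in wild type and below 0 in the knockout, and that of Cstf2 to Cstf2t overlaps between the genotypes.

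Among other genes of 3′-end formation, elongation control and termination, 24 of 41 tested were lower in the knockout and 7 were higher, with a median log2 change of −0.16. The list has 47 symbols, of which 44 have a row. Among all tested genes 31.2% were lower and 30.3% higher, or 37.2% and 29.2% of those at 10 CPM or more. The median log2 change was 0.0041 over all tested genes and −0.029 over those at 10 CPM or more. Against the chromosome medians 19 genes of the list were lower and 5 higher. The knocked-out gene Ube2cbp is itself 1 of the 24. The next smallest p-values among those that fell were those of Hnrnph1, which encodes an RNA-binding protein that acts near poly(A) sites (log2 −0.41, SE 0.032, from 394 ± 23.9 to 297 ± 7.49 CPM), of Cdk9, the kinase of the elongation factor P-TEFb (log2 −0.47, SE 0.042, from 75.3 ± 1.90 to 54.2 ± 2.41 CPM), and of the splicing repressor gene Ptbp1 (log2 −0.28, SE 0.029, from 426 ± 7.22 to 351 ± 5.02 CPM). Among those that rose the smallest were those of Zc3h14, a poly(A)-binding protein gene on chromosome 12 (log2 0.20, SE 0.031), the CTD phosphatase gene Rpap2 on chromosome 5 (log2 0.25, SE 0.058), the general factor gene Gtf2b on chromosome 3 (log2 0.21, SE 0.059) and the elongation factor gene Supt5 on chromosome 7 (log2 0.091, SE 0.031). Cdk9 and Rtf1 lie on chromosome 2, whose median log2 change was −0.24. For the genes named as rising, the medians of chromosomes 12, 5, 3 and 7 were 0.19, 0.19, 0.30 and 0.014. The subunit genes of the PAF1 elongation complex, Ctr9 (log2 −0.28, SE 0.039), Rtf1 (log2 −0.28, SE 0.036) and Cdc73 (log2 −0.22, SE 0.042), fell, and Paf1 (log2 −0.068, SE 0.05) and Leo1 (log2 −0.09, SE 0.059) were not called. Without knockout replicate 2 the higher genes of this list numbered 4.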

How the data were processed

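Total RNA of 3 wild-type and 3 Ube3d knockout samples went into rRNA-depleted, stranded libraries (the labels' protocols). The deposited tables hold the authors' raw read counts, for each gene with its coordinates and exon length, and for each region downstream of a gene (DoG). STAR 2.6.1d, featureCounts 1.6.3 and mm10 or GRCm38 are named in the submitters' processing notes; the strand setting and the treatment of reads with several alignments are not given. Symbols of 23204 genes matched RefSeq, and 99.3% of these overlapped the GRCm38.p6 position, all 40 members among them.

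All genes were fitted together with edgeR 4.0.16 (quasi-likelihood, robust, TMM, no covariate; filterByExpr, minimum count 10, minimum total 15) and adjusted by Benjamini-Hochberg over 12947 genes. Each SE was derived from the fold change and the test's F. CPM uses TMM-scaled library sizes and TPM the deposited exon lengths. Each member held 335 to 75665 counts per library. Values per library are given for members with an adjusted p under 0.05 and an absolute log2 change of at least 0.25, for Cpsf3 and for the smallest p of each group; of the further list, up to 4 genes per direction were to be named, and the Paf1 complex genes, and Ccnk per library, were added after their values were seen. The members and lists were chosen with earlier results of these data known. Replicates of a genotype differed by more than sampling noise (mean chi-square per gene 2.04 to 6.35). This mean includes Rn45s, whose share of the counts differed between libraries, and its part in the mean was not computed. The test was checked on counts simulated with its own fitted dispersions. Of 50 genes changed 1.25-fold 78% were called, and 12 unchanged genes were called among 12899 tested. Few genes were changed in that simulation and no chromosome was shifted, so it does not check the share of false calls in the real setting. Alternatives were RLE factors, 2 other count filters, DESeq2 1.42.0, limma-voom (limma 3.58.1), the replicate number as a block, each library left out, and the chromosome median as the null; leaving out Rn45s, and all alternatives for the further list, were added after the data were seen. Exact tests used SciPy 1.17.1.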

Additional observations from a re-analysis of the deposited data

How the results depend on the processing

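Over all alternatives the number of members called higher ran from 13 to 15 and of those called lower from 11 to 14. The restriction to the 26 members off chromosomes 2, 3, 5 and 12 stands apart from these ranges. It left 10 higher (38.5% of the 26, against 37.5% of all 40) and 6 lower (23.1%, against 30%). The shares of all tested genes off these chromosomes were not computed. The median log2 change of the members, 0.014, was −0.028 against the chromosome median and between −0.015 and 0.014 with 1 library left out, the lowest without wild-type replicate 2. Of 224 values of the 16 members that the naming rule chose for values per library (Ccnk not included), 219 kept direction and call. The rule chose these members largely by small p-values in the same libraries, so most calls were likely to be kept. Weaker calls such as those of Cpsf4 (edgeR adjusted p = 0.048) and Ncbp2 (edgeR adjusted p = 0.036) were not among the 16. Rprd1b (−0.015) lost its call and Rprd2 reversed (−0.031) against the chromosome median, by the construction of that test, and Rbbp6 and Zc3h4 lost theirs with 1 library left out, as given above; the cause was not tested. The further list had 4 to 7 higher genes with 1 library left out (21 to 25 lower), and 5 higher and 19 lower against the chromosome median. Ube2cbp stayed between −1.98 and −1.75, and the DoG ratio between 1.19 and 1.23. The replicate numbers did not pair the samples (correlations of same-numbered deviations −0.029, −0.033 and −0.032 over 12947 genes), and with the replicate block 14 members were higher and 11 lower. With DESeq2 the counts were likewise 14 and 11. At these depths the 95% intervals of the members had half-widths of 0.057 to 0.15 on the log2 scale.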
